A study of Mus musculus with 48 samples.

Results

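IGHV7-1, IGHV7-3 and IGHV7-4 are the 3 genes of the mouse IGHV7 family (the S107 family of the older nomenclature) to which heavy-chain B cell receptor (BCR) sequences were assigned in these libraries. Their members were every deposited row whose assigned V gene, read before the allele mark, was one of the 3, a rule that used no measured value. In the lacrimal gland (LG), the tear-producing gland, they made up 6439 of 188868 rows and 133781 of 2878417 counts, and in the spleen 91483 of 4645346 rows and 394610 of 11666610 counts. A count is 1 consensus sequence built from reads that share a unique molecular identifier (UMI). A clonotype is a set of sequences with the same IGHV gene, the same IGHJ gene and the same heavy-chain CDR3 (HCDR3) amino acid sequence. Sequences whose exact nucleotides recurred in 3 or more mice of the same tissue were removed, following the wording of the study's rule against carry-over between libraries, and the family then held 988 LG and 49974 spleen clonotypes. The removal took 9.83% of all LG counts and 9.84% of all spleen counts. The LG share rested on a few libraries: 1 of them, described below as PBS-T 5, lost 39.8%, and the median loss was 1.06%. Both totals are far more than the study states for either tissue as a whole, with the wider gap in the LG. Some single LG libraries lost less here than the study states. The filtered data here are therefore not the study's filtered data, and the step behind the gap was not found.

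The libraries came from 24 C57BL/6 (B6) mice, each giving 1 LG and 1 spleen library. The 10 NOD-FMT mice, 5 weeks old at the start, received daily gavage of fecal supernatant from aged male NOD.B10.H2b mice, a strain with autoimmune dry eye, for 3 weeks. The 9 PBS-T mice received PBS by gavage over the same period. Before gavage, feces were mixed across the cages and ampicillin, vancomycin and metronidazole were given in the drinking water. The 5 NC mice were untreated B6 mice and so differed from the gavaged groups in antibiotics and gavage as well. The LG and spleen of a mouse are paired, and the mouse is the unit in every test. Some shares and ranks pool counts or clonotypes over mice and are descriptions. Whole tissue was used, so fewer B cells of a kind and less RNA per cell cannot be told apart.

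An antibody heavy chain is assembled from 1 V, 1 D and 1 J segment, and the HCDR3 spans their joins. The textbook product of this family is the T15 antibody against phosphorylcholine, a head group found on pneumococci, on other microbes and on oxidised lipids. Its heavy chain joins IGHV7-1 (V1 of the S107 family) to IGHD1-1 (DFL16.1) and IGHJ1 with few or no added bases, and it is known as a natural IgM product of B-1 cells. IGHV11-2 and IGHV12-3, the best known B-1 genes against phosphatidylcholine, served as a comparison list together with IGHV11-1.

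In GRCm38 all 3 genes lie on the minus strand of chromosome 12, IGHV7-1 at chr12:113896408-113896946, IGHV7-3 at chr12:114153180-114153644 and IGHV7-4 at chr12:114222788-114223328. Counted from the IGHJ side they are the annotated IGHV genes 33, 51 and 55 of 183, each annotated as an IG_V_gene in GENCODE M21, whose transcripts have 2 exons. A further annotated member, Ighv7-2, received no row. The transcripts of IGHV7-3 and IGHV7-4 were 94.5% identical over the aligned bases, those of IGHV7-1 and IGHV7-3 89.2%. The germline CDR1 and CDR2 are shown because they are the parts of the V gene that differ between members in the binding site. They were read from unmutated sequences in the files and are present in the reference transcripts. Capitals mark bases that differ from IGHV7-3.
IGHV7-1 CDR1: ggGttcaccttcaGtgattTctac
IGHV7-3 CDR1: ggattcaccttcactgattactac
IGHV7-4 CDR1: ggattcaccttTactgattactac
IGHV7-1 CDR2: aGtagaaacaaagctaatgAttaTacaaca
IGHV7-3 CDR2: attagaaacaaagctaatggttacacaaca
IGHV7-1 differed at 3 bases in each loop, and read as GFTFSDFY and SRNKANDYTT against GFTFTDYY and IRNKANGYTT in IGHV7-3. IGHV7-4 differed from IGHV7-3 at 1 base of CDR1, which left the residues the same, and at 0 bases of CDR2.

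The next sequences are the HCDR3 of the 8 IGHV7 clonotypes that occurred in every one of the 24 spleens before shared sequences were removed. The nucleotide form found in most spleens is printed, and capitals mark the bases between the end of the germline V match and the start of the germline J match.
IGHV7-1 IGHJ1 ARDYYGSSYWYFDV: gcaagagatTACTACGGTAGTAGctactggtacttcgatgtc
IGHV7-1 IGHJ1 ARDNWDWYFDV: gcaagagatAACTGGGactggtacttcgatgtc
IGHV7-1 IGHJ1 ARDAWDWYFDV: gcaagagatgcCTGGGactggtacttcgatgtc
IGHV7-1 IGHJ1 ARDDGYYWYFDV: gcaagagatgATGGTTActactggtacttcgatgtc
IGHV7-1 IGHJ1 ARDGYDWYFDV: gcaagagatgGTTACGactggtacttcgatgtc
IGHV7-1 IGHJ3 ARDAWFAY: gcaagagatgcctggtttgcttac
IGHV7-3 IGHJ4 ARYYYGSSYAMDY: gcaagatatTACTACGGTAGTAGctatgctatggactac
IGHV7-3 IGHJ2 ARSGYYFDY: gcaagatCTGGGTactactttgactac
The first is the T15-type HCDR3. Of its 42 bases, the V match covers 9, the J match 19 and the stretch between them 14, and 20 contiguous bases match IGHD1-1 when the matches may overlap. The IGHV7-1 and IGHJ3 form with HCDR3 ARDAWFAY had 0 bases between its V and J matches.

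Libraries that stood apart were these. The LG library of PBS-T 5 held 17213 clonotypes, while the other 23 LG libraries held 560 to 2504, and only 2.14% of its clonotypes were in its own spleen against 17.8% to 60.5% in the other LGs. Its clonotypes were found in 37.9% of the clonotypes of the PBS-T 7 LG and in 10.2% to 29.3% of those of the NC LGs. The LG of NC 2 shared 46.7% of its clonotypes with the LG of NC 3, and matched the NC 3 spleen (31.8%) better than its own (19.7%). The other 22 of 24 LG libraries matched their own spleen best. The spleen of PBS-T 6 lost 66.6% of its counts to the removal made here, far more than the study states for this library. A mark in the deposited names shows that 11 LG libraries, 6 NOD-FMT, 4 PBS-T and 1 NC, were merged, without saying from what. Counts after removal of shared sequences were 40105 to 264365 per LG library and 71859 to 2032338 per spleen library.

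IGHV7-3 was the most used member in both tissues. It made up a mean of 2.40% of LG clonotypes (rank 10 of 141 IGHV genes) and 1.30% of spleen clonotypes (rank 30 of 136). IGHV7-1 made up 0.919% of LG clonotypes (rank 37) and 0.316% of spleen clonotypes (rank 65). IGHV7-4 was rare, with 0.0514% of LG and 0.0955% of spleen clonotypes. By counts, IGHV7-3 ranked 7 in the LG with 3.43% and 16 in the spleen with 1.99%. In the spleen the 3 genes did not overlap in their shares of clonotypes, with IGHV7-3 between 1.00% and 1.60%, IGHV7-1 between 0.265% and 0.415% and IGHV7-4 between 0.0554% and 0.136% over the 24 mice.

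**Figure D1:**
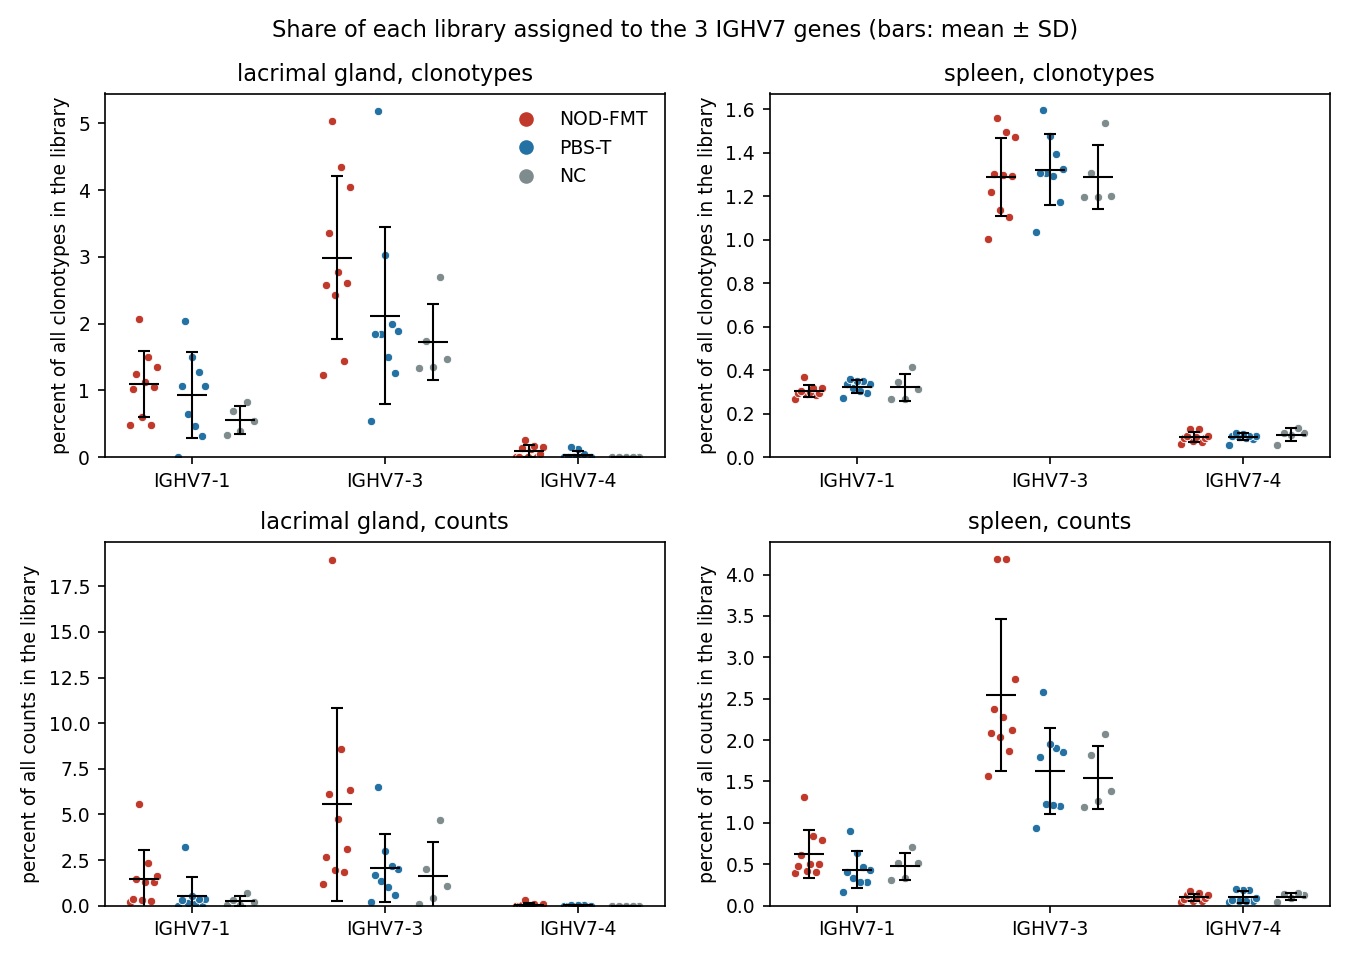
Percent of clonotypes (upper panels) and of counts (lower panels) assigned to IGHV7-1, IGHV7-3 and IGHV7-4 in each LG (left) and spleen (right) library, 1 point per mouse, with the mean ± SD of each group as black bars. The spleen clonotype shares of the groups overlap for each gene, while single LG libraries, such as NOD-FMT 6 with 18.96% of counts in IGHV7-3, lie far above the rest.

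The first question was whether the transfer of the NOD.B10.H2b microbiota went with a change in the use of these genes. In the spleen, the share of clonotypes taken by IGHV7-3 was 1.00%, 1.30% and 1.56% (lowest, median, highest) in NOD-FMT mice and 1.04%, 1.31% and 1.60% in PBS-T mice, and 1.2018%, 1.1978%, 1.31%, 1.54% and 1.1975% in the 5 NC mice. The groups overlapped over almost their whole range. IGHV7-1 gave 0.267%, 0.298% and 0.367% in NOD-FMT mice and 0.274%, 0.334% and 0.358% in PBS-T mice. In edgeR's quasi-likelihood test the log2 fold changes of NOD-FMT over PBS-T were -0.09 (SE 0.08, adjusted p = 0.757) for IGHV7-1, -0.03 (SE 0.08, adjusted p = 0.940) for IGHV7-3 and -0.000478 (SE 0.15, adjusted p = 0.998) for IGHV7-4. None of the 3 passed, where 1 of 100 genes tested (1%) did. Of the comparison list, IGHV11-2 and IGHV12-3 could be tested and 0 of 2 passed.

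By counts, the spleen share of IGHV7-3 was 1.57%, 2.20% and 4.19% (lowest, median, highest) in NOD-FMT mice and 0.938%, 1.80% and 2.58% in PBS-T mice. The NC mice had 1.82%, 1.19%, 1.39%, 2.07% and 1.27%. The highest values were in NOD-FMT mice, and the groups overlapped. The log2 fold change over PBS-T was 0.64 (SE 0.21), with an edgeR adjusted p of 0.0701 over 103 genes, of which 2 (1.94%) passed. DESeq2 gave 0.57 with an adjusted p of 0.0278, and the exact permutation of mean shares gave an adjusted p of 0.224, so the call depended on the test. Without PBS-T 3 it passed in edgeR as well (0.75, adjusted p = 0.0339). IGHV7-1 had a log2 fold change of 0.53 (SE 0.28, adjusted p = 0.431) and IGHV7-4 of -0.05 (SE 0.34, adjusted p = 0.999), both by edgeR.

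In the LG the spread between mice was wider. IGHV7-3 clonotypes were 1.24%, 2.69% and 5.03% (lowest, median, highest) in NOD-FMT LGs and 0.536%, 1.85% and 5.19% in PBS-T LGs, and 2.70%, 1.48%, 1.74%, 1.36% and 1.34% in the NC LGs. IGHV7-1 clonotypes were 0.475%, 1.09% and 2.07% in NOD-FMT LGs and 0%, 1.06% and 2.04% in PBS-T LGs, where PBS-T 9 held 0 of 976 clonotypes. The ranges overlapped for both genes. The edgeR log2 fold changes were 0.51 (SE 0.31, adjusted p = 0.250) for IGHV7-3 and 0.29 (SE 0.42, adjusted p = 0.634) for IGHV7-1. IGHV7-4, with 20 LG clonotypes in 9 libraries (6 NOD-FMT, 3 PBS-T and 0 NC), was too rare to be tested by clonotypes. Of 43 genes tested 4 (9.3%) passed, none of them an IGHV7 gene. Among the merged libraries alone the log2 fold change of IGHV7-3 was 0.56 and that of IGHV7-1 was -0.55, and among the others that of IGHV7-3 was 0.57, none of which passed, while IGHV7-1 was too rare there to be tested.

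IGHV7-3 took 1.165%, 3.93% and 18.96% (lowest, median, highest) of NOD-FMT LG counts and 0.176%, 1.70% and 6.52% in PBS-T LGs. Here too the ranges overlapped, with the 2 highest libraries in the NOD-FMT group. The edgeR log2 fold change was 1.43 (SE 0.70, adjusted p = 0.386), that of IGHV7-1 1.40 (SE 1.04, adjusted p = 0.506) and that of IGHV7-4 2.38 (SE 1.70, adjusted p = 0.506). Single mice moved these values: IGHV7-1 had 0.87 without NOD-FMT 7 and 2.71 without PBS-T 3, and IGHV7-4 had 1.44 without NOD-FMT 3 and 3.55 without PBS-T 4. By edgeR 0 of 86 genes passed in this comparison (0%), with 11 at an unadjusted p under 0.05, and by DESeq2 3 passed. The exact permutation of mean shares gave 0.0461 for IGHV7-3 unadjusted and 0.547 adjusted.

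Against the untreated NC mice no member passed in either tissue in the main edgeR fit. With LG clonotypes of at least 2 counts 1 member did for NOD-FMT, a setting whose calls over all genes are not given here. By LG clonotypes the log2 fold changes of NOD-FMT over NC were 0.97 (SE 0.53, adjusted p = 0.282) for IGHV7-1 and 0.78 (SE 0.37, adjusted p = 0.230) for IGHV7-3 by edgeR, where 4 of 43 genes (9.3%) passed. By spleen clonotypes 0 of 100 passed (0%, with 6 at an unadjusted p under 0.05 and 1 called by DESeq2). By LG counts 0 of 86 passed (0%, with 10 at an unadjusted p under 0.05 and 2 called by DESeq2), and by spleen counts 3 of 103 (2.91%). IGHV7-3 had a spleen count log2 fold change over NC of 0.72 (SE 0.26, adjusted p = 0.173 by edgeR), which passed with TMM scaling (adjusted p = 0.0414) and with DESeq2 (adjusted p = 0.0164). Leaving out single NC mice gave adjusted p of 0.160 to 0.309 by edgeR. PBS-T over NC gave 0 of 43 genes by LG clonotypes (0%, with 0 at an unadjusted p under 0.05 and 0 by DESeq2), 0 of 100 by spleen clonotypes (0%, 4 and 0), 2 of 86 by LG counts (2.33%) and 0 of 103 by spleen counts (0%, 14 and 0), where the further pairs are again the genes at an unadjusted p under 0.05 and the DESeq2 calls. All comparisons with NC share the NC libraries.

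The LG and spleen of the same mice were compared next. IGHV7-1 clonotypes had a mean share of 0.919% ± 0.535 in the LG and 0.316% ± 0.0365 in the spleen (SD, n = 24). In the paired edgeR fit with mouse as a block the log2 fold change of LG over spleen was 1.40 (SE 0.22, adjusted p = 1.24e-07). IGHV7-3 had 2.40% ± 1.24 and 1.30% ± 0.161, with a log2 fold change of 0.76 (SE 0.16, adjusted p = 6.5e-05). IGHV7-4 had -0.96 (SE 0.42, adjusted p = 0.0568). Of 91 genes tested 35 (38.5%) passed, 11 higher and 24 lower in the LG, so IGHV7-1 and IGHV7-3 were 2 of the 11. IGHV11-2 of the comparison list was also higher (1.78, adjusted p = 9.77e-06), while IGHV12-3 gave 0.58 (adjusted p = 0.203).

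Part of this depended on what was counted. With clonotypes of at least 2 counts the IGHV7-1 value was 0.57 (adjusted p = 0.0186) and that of IGHV7-3 turned to -0.26 (adjusted p = 0.137). With libraries thinned to 1 number of counts per tissue, IGHV7-3 gave 0.46 (adjusted p = 0.00895) and IGHV7-1 1.09 (adjusted p = 3.46e-05, both by edgeR). Leaving out each mouse in turn, like the thinning an alternative added after seeing the data, the libraries that stood apart included, gave 1.33 to 1.49 for IGHV7-1 and 0.70 to 0.82 for IGHV7-3. LG libraries were mostly IgA, so the comparison was repeated on IgA clonotypes alone, a choice made after seeing the data. IGHV7-1 was then 0.727% ± 0.510 of LG and 0.465% ± 0.184 of spleen IgA clonotypes, higher in 16 of 24 LGs (sign-flip permutation, adjusted p = 0.0232). For IGHV7-3 the shares were 2.57% ± 1.48 and 1.96% ± 0.656, higher in 14 of 24 (adjusted p = 0.0641). Without PBS-T 5 the differences were 0.279 percentage points for IGHV7-1 and 0.717 for IGHV7-3, against 0.262 and 0.613 with it. The unadjusted p was 0.0069 and 0.0169 without it, and 0.00772 and 0.0427 with it (sign-flip permutation).

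By counts, the LG against spleen fit called 75 of 96 genes (78.1%), all of them lower, and its median log2 fold change was -2.39, so values are read against that median. IGHV7-1 had -0.58 (SE 0.61, adjusted p = 0.374) and IGHV7-3 0.15 (SE 0.35, adjusted p = 0.702), neither called, and IGHV7-4 -6.37 (SE 1.08, adjusted p = 2.05e-07). Without the removal of shared sequences IGHV7-1 had -1.41 and was called (edgeR adjusted p = 0.0149). With TMM scaling the median was -1.09, with 9 genes higher and 33 lower, and IGHV7-1 gave 0.77 and IGHV7-3 1.44, the latter called. In 15 of 24 LGs IGHV7-4 had 0 counts.

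J gene pairing set the members apart from other genes and from each other. In the spleen, 34.4% ± 3.58 of IGHV7-1 clonotypes (SD, n = 24; 25.2% to 39.7%) used IGHJ1, the J gene of T15, against 15.2% ± 0.423 of clonotypes of all other genes. The share was higher in 24 of 24 mice (two-sided sign-flip permutation of the paired differences, adjusted p = 1.09e-05, from p = 1e-05, the smallest that 100000 sign flips can give). With the clonotypes of all spleens pooled, IGHV7-1 ranked 5 in IGHJ1 use among 93 genes with at least 1000 clonotypes, and the highest was IGHV11-2 with 43.4%. IGHJ2 use was 13.04% ± 2.47 against 34.2%, lower in 24 of 24 mice and the lowest but 4 of the 93 genes.

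IGHV7-4 also favoured IGHJ1, with 27.2% ± 5.09 against 15.2% (higher in 24 of 24, rank 7), and used less IGHJ2 (25.8% against 34.2%) and IGHJ4 (21.3% against 26.4%). IGHV7-3, which resembles IGHV7-4 in sequence, lay closer to other genes in IGHJ1 (17.7% against 15.2%) and IGHJ2 (36.9% against 34.1%), and its largest departure was in IGHJ3, with 16.8% against 24.3%, lower in 24 of 24 mice. Of the 12 pairings of 3 genes and 4 J genes, 11 had an adjusted p of 1.09e-05 and IGHJ3 of IGHV7-4 had 0.0986. By counts, 3 of these 11 no longer passed: IGHJ3 of IGHV7-1 (adjusted p = 0.054), IGHJ4 of IGHV7-1 and IGHJ1 of IGHV7-3 (adjusted p = 0.633 each, sign-flip permutation), and the last changed direction. The IGHJ1 share of IGHV7-1 was 35.3% ± 2.67 in NOD-FMT, 35.1% ± 4.16 in PBS-T and 31.3% ± 2.78 in NC spleens (NOD-FMT against PBS-T, exact permutation p = 0.942).

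**Figure D2:**
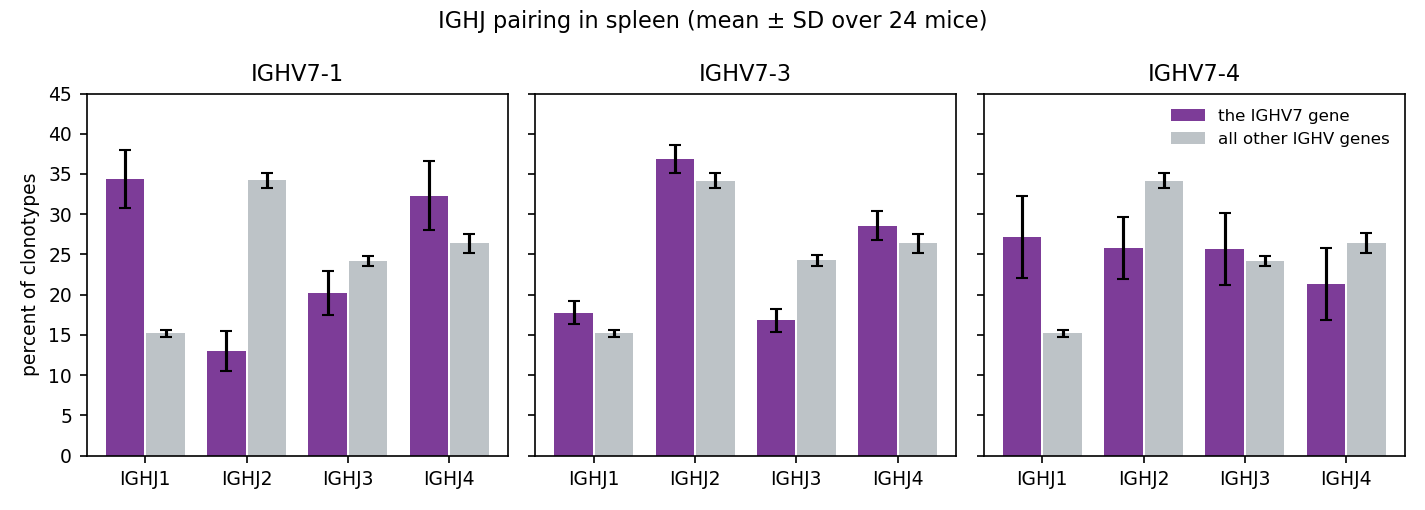
Percent of spleen clonotypes of IGHV7-1, IGHV7-3 and IGHV7-4 (purple) and of all other IGHV genes in the same libraries (grey) that used each IGHJ gene, as means with SD over 24 mice. IGHV7-1 used IGHJ1 in 34.4% and IGHJ2 in 13.04% of clonotypes, against 15.2% and 34.2% for the other genes.

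In the LG fewer clonotypes were available. In the 9 LGs with at least 10 IGHV7-1 clonotypes, IGHJ2 use was 8.35% ± 4.46 against 33.6% in other genes, lower in 9 of 9 (exact sign-flip permutation, adjusted p = 0.0104), and IGHJ1 use was 34.8% ± 26.1 against 17.3% (adjusted p = 0.117). IGHV7-3 in 23 LGs used more IGHJ2 (45.0% against 33.8%, adjusted p = 0.00856, permutation) and less IGHJ3 (14.4% against 23.95%, adjusted p = 0.00376, permutation).

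The first residues of the HCDR3, which the V gene encodes, differed between the members. In the spleen 72.1% of IGHV7-1 clonotypes began with ARD, 52.7% of IGHV7-3 with ARY and 82.0% of IGHV7-4 with VKA. The mean HCDR3 length per mouse was 12.1 ± 0.229 residues for IGHV7-1, 11.7 ± 0.199 for IGHV7-3 and 11.9 ± 0.472 for IGHV7-4, against 11.5 for other genes (sign-flip permutation, adjusted p of at most 8.33e-05, higher in 24, 24 and 21 of 24 mice). In the LG, IGHV7-3 clonotypes had 11.3 ± 0.782 residues against 11.7, higher in 7 of 23 mice (sign-flip permutation, adjusted p = 0.0563), and IGHV7-1 had 11.9 ± 1.13 against 11.6 in 9 mice (exact sign-flip permutation, adjusted p = 0.367).

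IGHV7-1, IGHV11-2 and IGHV12-3 had the highest shares of spleen counts in sequences found in several mice. With the counts of all spleens pooled, 64.0% of IGHV7-1 counts lay in nucleotide sequences that occurred in more than 2 mice, rank 1 of 96 genes with at least 1000 counts, and IGHV11-2 (60.6%) and IGHV12-3 (60.0%) of the comparison list ranked 2 and 3. The share ran from 29.7% (PBS-T 8) to 79.3% (PBS-T 7) over the spleens, a spread far wider than the gap between these 3 genes. With every spleen weighted equally the mean was 62.7% ± 13.2 for IGHV7-1, 61.9% ± 19.94 for IGHV11-2 and 54.4% ± 13.01 for IGHV12-3 (SD, n = 24), in the same order. Within single spleens IGHV7-1 ranked first in 8 and IGHV11-2 in 11 of 24, and IGHV7-1 was among the 3 highest genes in 21. In the pooled counts IGHV7-3 had 12.5% (rank 18) and IGHV7-4 4.47% (rank 52). These are the sequences removed here, so the removal took a larger share of the pooled counts from these 3 genes than from any other ranked gene of the spleen. In the LG, again with counts pooled, the shares were 9.60% (rank 22 of 85) for IGHV7-1 and 5.98% (rank 29) for IGHV7-3, and 74.9% (rank 1) for IGHV12-3. Single LGs differed widely. IGHV7-1 ran from 0% (NOD-FMT 8) to 34.8% (NOD-FMT 6) in NOD-FMT and from 0% (PBS-T 4) to 69.8% (PBS-T 2) in PBS-T LGs. In NC LGs it ran from 17.4% (NC 3) to 68.8% (NC 4). IGHV7-3 had 54.7% in PBS-T 5, 23.2% in NC 4 and at most 1.88% in any other LG. Whether this loss differed between groups was not tested. Before the removal the mean IGHV7-1 share of LG counts was 1.33% in NOD-FMT and 0.714% in PBS-T LGs. After the removal these means were 1.47% and 0.556%.

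**Figure D3:**
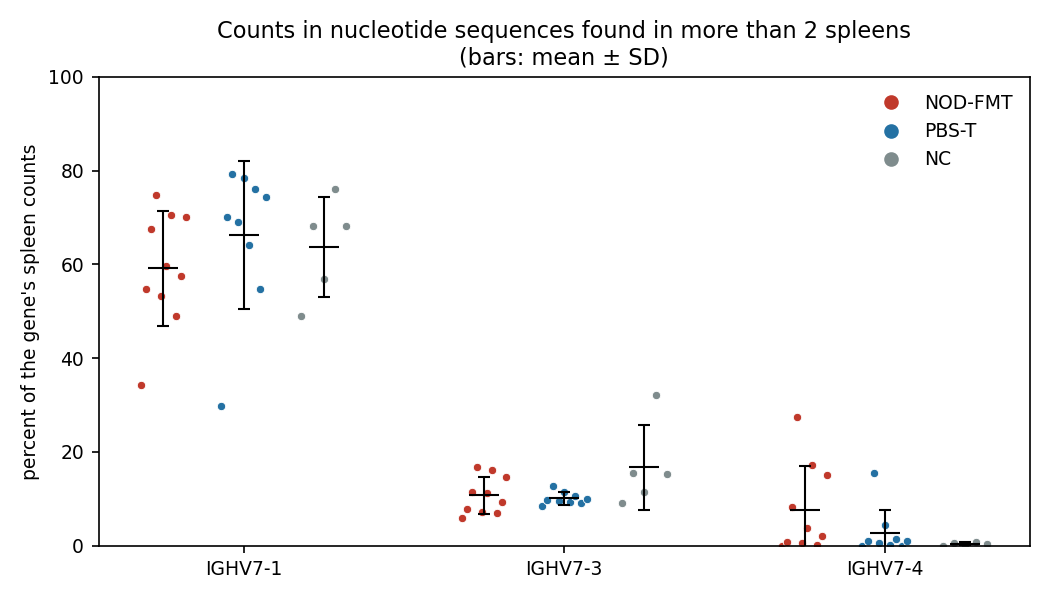
Percent of the spleen counts of IGHV7-1, IGHV7-3 and IGHV7-4 that lay in nucleotide sequences found in more than 2 of the 24 spleens, 1 point per mouse, with the mean ± SD of each group. IGHV7-1 ranged from 29.7% to 79.3%, and the groups overlapped.

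Without the removal, 6 IGHV7-1 clonotypes occurred in all 24 spleens, of 59 such clonotypes over all genes, and only IGHV1-26 had as many. Their counts summed over spleens were 30957 for ARDNWDWYFDV, 13479 for ARDAWDWYFDV, 8318 for ARDYYGSSYWYFDV, 7211 for ARDDGYYWYFDV, 6538 for ARDGYDWYFDV and 6048 for ARDAWFAY, the last with IGHJ3 and the others with IGHJ1. The NOD-FMT 3 spleen, the library with the most counts, gave 7895 of the ARDAWDWYFDV and 4473 of the ARDAWFAY counts. Together the 6 clonotypes held 44.2% ± 15.1 of the IGHV7-1 counts of a spleen (16.9% to 71.1%, n = 24). Clonotypes of that reach in the other IGHV genes held 1.01% ± 0.457. Genes of the comparison list also had high shares: with the counts of all spleens pooled, such clonotypes held 48.5% of IGHV7-1, 41.3% of IGHV11-2 and 17.5% of IGHV12-3 counts. The shares were 46.5% ± 12.8 in NOD-FMT, 41.3% ± 16.8 in PBS-T and 44.9% ± 18.5 in NC spleens. With the removal, ARDNWDWYFDV and ARDYYGSSYWYFDV were still found in all 24 spleens, in sequences held by at most 2 mice each. IGHV7-3 had 2 clonotypes in all 24 spleens, ARYYYGSSYAMDY with 1604 counts and ARSGYYFDY with 640, and both fell below 24 spleens with the removal. IGHV7-4 had none, and its widest clonotype was in 7 spleens.

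Counting clonotypes rather than counts gave smaller differences. Of IGHV7-1 spleen clonotypes 2.64% were found in at least 3 mice, of IGHV7-3 2.71%, of IGHV7-4 0.580% and of other genes 1.85%. Without the removal the shares were 3.39%, 3.42%, 0.709% and 2.11%.

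Before the removal, with the counts of all spleens pooled, the 6 shared IGHV7-1 clonotypes were mostly unmutated IgM in the spleen. At that stage the share of spleen counts with 0 V-region mutations was 93.6% for ARDNWDWYFDV, 95.9% for ARDAWDWYFDV, 96.0% for ARDDGYYWYFDV, 95.2% for ARDGYDWYFDV and 91.1% for ARDAWFAY, and their IgM share was 99.4% to 99.6%. The T15-type clonotype ARDYYGSSYWYFDV differed in isotype, with 88.9% IgM and 10.7% IgA, and 88.7% of its counts were unmutated. After the removal far fewer counts were left, and the unmutated share of these was 6.67% for ARDNWDWYFDV, 22.4% for ARDAWDWYFDV, 22.5% for ARDDGYYWYFDV, 17.01% for ARDGYDWYFDV, 16.1% for ARDAWFAY and 24.3% for ARDYYGSSYWYFDV. The IgM share stayed at 98.3% or more in the first 5 and was 85.9% in the T15-type clonotype. Its leading nucleotide form, printed above, held 7930 of the 8318 counts and was in 24 spleens, and 24 nucleotide forms of the HCDR3 were seen. The HCDR3 of ARDAWDWYFDV was reached by 2 abundant forms, with 6970 and 6476 counts, each in 23 spleens.

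The T15-type clonotype made up 0.0105%, 0.0773% and 0.209% (lowest, median, highest) of all spleen counts over 24 mice before the removal. The group means were 0.0669% ± 0.0278 in NOD-FMT and 0.0808% ± 0.0644 in PBS-T spleens (exact permutation, p = 0.559), and 0.116% in NC spleens. After it, 843 counts remained, between 0.000533% and 0.0415% of a library (exact permutation, p = 0.653). In the LG it was the most widespread IGHV7 clonotype, found in 15 of 24 LGs with 1285 counts, or in 11 LGs with 84 counts after the removal. It had 339 counts in PBS-T 6, 256 in NOD-FMT 10, 215 in NOD-FMT 5, 187 in NC 4, 103 in NC 3 and 97 in PBS-T 1, from 1 to 31 in 9 further LGs and 0 in the other 9. All 3 groups held LGs with more than 90 counts and LGs with 0, and NOD-FMT and PBS-T did not differ beyond this spread (exact permutation, p = 0.445). In the LG its counts were 99.3% IgA and 94.4% unmutated before the removal. The 84 counts left after it were 96.4% IgA and 14.3% unmutated, a fall that again follows from the removal itself.

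The 3 most widespread IGHV7-3 clonotypes of the LG were held mainly by 1 library. ASQLGRGYWYFDV, ARSSLYGNSFAY and ARSNWGYFDV were found in 9, 8 and 8 LGs before the removal. The PBS-T 5 LG held 3286, 1967 and 1582 counts of them, and each other LG that had them held 1 to 10. They were at least 99.7% IgA and none was found in a spleen. Most clonotypes found in at least 3 mice still reached 3 when the PBS-T 5 library was left out. Copies of its clonotypes in other LGs were still counted, so this cannot show independence from that library. Without it, 8 of 514 IGHV7-3 and 6 of 196 IGHV7-1 LG clonotypes occurred in at least 3 mice after the removal, against 10 of 704 and 7 of 264 with it. No IGHV7-4 LG clonotype occurred in more than 1 mouse.

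For each of the 3 genes, the clonotype with the highest share of counts in a LG was in a NOD-FMT mouse. ARYTPLGSYFDY of IGHV7-3 and IGHJ2 took 16.5% of the NOD-FMT 6 LG counts (Wilson 95% interval 16.2% to 16.8%, counting error only), was 100% IgA and 84.9% unmutated, and had 218 counts in the spleen of that mouse. ARNYYSNSHWYFDV of IGHV7-1 and IGHJ1 took 5.10% of the NOD-FMT 7 LG counts (5.01% to 5.18%), with 0.0150% of its counts unmutated and 268 counts in the same spleen. VKAEHSNSLGY of IGHV7-4 took 0.297% of the NOD-FMT 3 LG. In the spleen, ARTGTDWYFDV of IGHV7-1 took 0.698% of NOD-FMT 1 as 99.8% IgM. ARYTPGSSYFDY of IGHV7-3 took 0.921% of NOD-FMT 6 and was found in 5 spleens, 4 of them NOD-FMT. It was a mixture of 44.4% IgM, 34.4% IgG and 21.2% IgA with 0.734% of counts unmutated. Its mean share did not separate NOD-FMT from PBS-T spleens (exact permutation p = 0.523). Without the removal of shared sequences it took 1.42% of NOD-FMT 6, and 17.2% of its spleen counts were unmutated. ARTGTDWYFDV was seen in 1 spleen only and in no LG. The highest for IGHV7-4 in a spleen was in PBS-T 4, where VKAGGRWAWYFDV took 0.0843% with 441 counts, 99.1% of them IgA. These clonotypes were chosen for their size, which is therefore a description.

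LG and spleen of a mouse shared many clonotypes of the family. On average 42.7% ± 16.7 of IGHV7 LG clonotypes were in their own spleen and 7.56% in the spleens of the other mice of the same group. The share in the own spleen was higher in 24 of 24 mice (sign-flip permutation p = 1e-05, the smallest possible with 100000 flips). For IGHV7-3 the shares were 41.9% and 3.26% (23 of 23 LGs with at least 5 clonotypes, p = 1e-05 by the same permutation). For IGHV7-1 they were 40.7% and 18.99% (17 of 18, permutation p = 3e-05), so its share in the spleens of other mice was higher than that of IGHV7-3. All other genes had 32.9% and 3.28%. Without the removal of shared sequences the shares were 44.75% and 11.97% for the family, 45.8% and 27.6% for IGHV7-1 and 32.4% and 3.99% for all other genes. After the removal, 42.6% ± 12.6 and 46.2% ± 23.4 of the family's clonotypes in NOD-FMT and PBS-T LGs were in their own spleen (exact permutation p = 0.686).

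Isotypes followed the tissue. In the LG the mean share of IgA was 81.5% of IGHV7-1 counts (21 LGs with at least 20 counts), 89.1% of IGHV7-3 counts (24 LGs) and 91.5% of IGHV7-4 counts (6 LGs), against 91.1%, 88.4% and 94.9% of the other genes in the same LGs. No member passed. For IGHV7-1 the share ran from 0% to 100% with a median of 98.2%, and was higher than in other genes in 13 of 21 LGs (sign-flip permutation, adjusted p = 0.203). IgG was lower in IGHV7-3 than in other genes, 0.642% ± 1.10 against 6.84% (higher in 2 of 24 LGs, sign-flip permutation, adjusted p = 0.00015), and in IGHV7-1, 1.93% ± 4.44 against 5.76% (2 of 21, adjusted p = 0.0314). The IGHV7-1 result did not pass without the removal of shared sequences (5 of 22, sign-flip permutation, adjusted p = 0.0899) or by unique sequences (4 of 13, exact sign-flip permutation, adjusted p = 0.254), while that of IGHV7-3 passed in both. In the spleen IgM was higher in each member: 82.5% ± 15.3 for IGHV7-1 (higher in 22 of 24 mice, adjusted p = 0.00205), 77.0% ± 10.97 for IGHV7-3 (17 of 24, adjusted p = 0.0107) and 90.1% ± 8.50 for IGHV7-4 (23 of 24, adjusted p = 3e-05), against 70.2% to 70.3% for other genes. IgD was lower in each, at 2.45%, 1.80% and 3.95% against 6.05% to 6.14% (adjusted p of 3e-05, 3e-05 and 0.000325). IGHV7-4 was also low in IgG (2.18% against 11.8%, adjusted p = 3e-05) and IgA (3.81% against 11.8%, adjusted p = 0.000579). IgA was lower in IGHV7-1 as well (7.84% against 11.8%, higher in 7 of 24 mice, sign-flip permutation, adjusted p = 0.0215). For IGHV7-1 the spleen of PBS-T 8 stood apart, with 19.8% IgM and 78.3% IgG, while the other 23 spleens lay between 71.6% and 94.4% IgM.

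**Figure D4:**
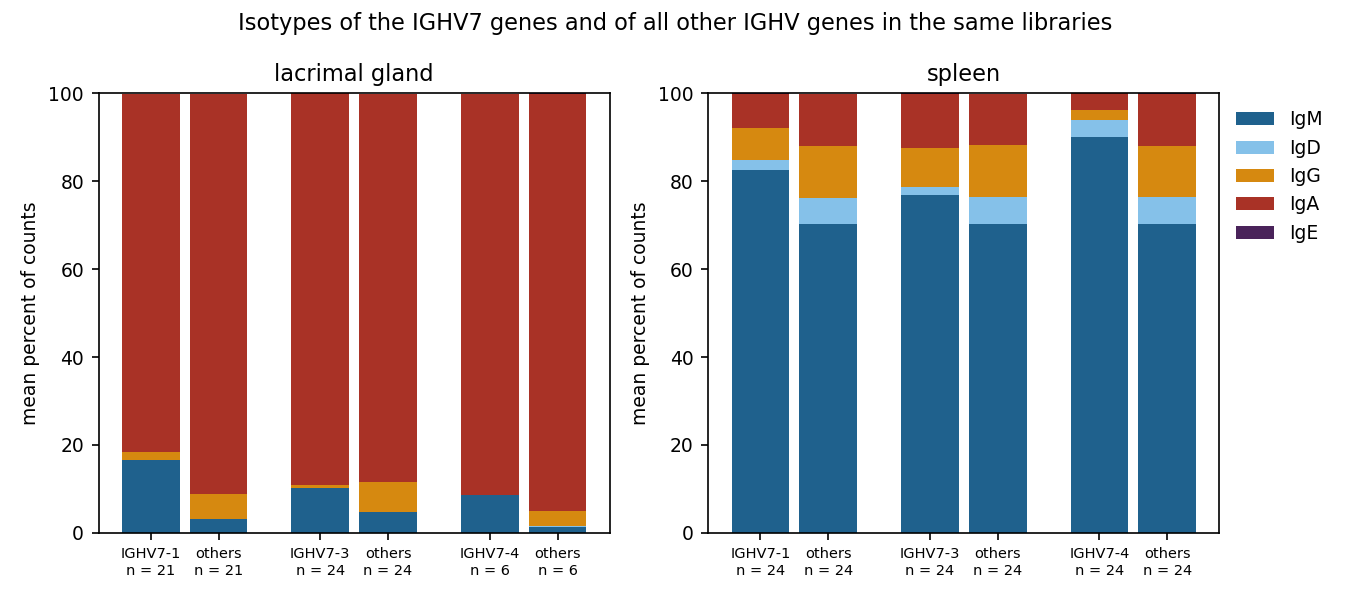
Mean percent of counts by isotype for each IGHV7 gene and for all other IGHV genes of the same libraries, in the LG (left) and spleen (right), where n is the number of libraries with at least 20 counts of the gene. The LG bars are mostly IgA and the spleen bars mostly IgM, and IGHV7-4 reaches 90.1% IgM in the spleen.

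Between groups, 1 isotype result passed by counts after the removal of shared sequences. In the LG the IgA share of IGHV7-3 was 94.7%, 99.2% and 99.96% (lowest, median, highest) in NOD-FMT and 18.7%, 95.6% and 99.4% in PBS-T LGs, with means of 98.4% ± 1.81 and 75.6% ± 31.7 (n = 10 and 9, exact permutation p = 0.00197, adjusted p = 0.0296), and 94.9% ± 7.81 in NC LGs. The groups overlapped, and PBS-T held the low values. The other genes moved alike, with 96.6% ± 1.42 and 75.2% ± 29.2 (exact permutation p = 0.00429), and the difference between IGHV7-3 and the other genes of the same LG did not separate the groups (p = 0.905 by exact permutation). Over the merged libraries the difference was 20.2 percentage points (6 and 4 mice, exact permutation p = 0.0143) and over the others 25.0 (4 and 5 mice, p = 0.238). It did not pass without the removal of shared sequences (adjusted p = 0.064) or by unique sequences (adjusted p = 0.092). IGHV7-1 had 96.6% ± 4.23 and 63.6% ± 42.6 over 10 and 7 LGs (exact permutation, adjusted p = 0.0964), and by unique sequences 93.0% ± 5.12 and 63.5% ± 27.0 over 6 and 5 LGs (exact permutation, adjusted p = 0.0216). By unique sequences the other genes of these LGs moved alike, with 92.5% ± 3.07 and 77.7% ± 9.20 (exact permutation p = 0.00216). The difference of IGHV7-1 from them did not separate the groups (exact permutation p = 0.249).

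Mutations were counted as mismatches to the germline V gene per unique sequence. In switched (IgG, IgA and IgE) spleen sequences the members carried fewer than other genes, with means of 2.05 ± 0.720 for IGHV7-1 (23 mice), 1.86 ± 0.606 for IGHV7-3 (24 mice) and 1.80 ± 1.05 for IGHV7-4 (7 mice) against 3.62, 3.60 and 3.56. They were lower in 23 of 23, 23 of 24 and 7 of 7 mice (sign-flip permutation, adjusted p of 3e-05, 3e-05 and 0.0234). The share with 0 mutations among switched sequences was 41.9%, 37.8% and 46.0% against 23.8%, 24.1% and 23.4%. In the LG the switched means were 1.22 ± 0.747 for IGHV7-1 (16 LGs) and 1.11 ± 0.411 for IGHV7-3 (23 LGs) against 2.10 and 2.09 (adjusted p = 0.0011 and 6e-05, sign-flip permutation). The LG share with 0 mutations lay nearer to that of other genes. For IGHV7-1 it was 30.9% against 28.0% in 9 NOD-FMT and 29.8% against 26.7% in 4 PBS-T LGs. For IGHV7-3 it was 31.9% against 29.1% in 10 NOD-FMT and 37.3% against 29.5% in 8 PBS-T LGs. The switched isotypes were pooled, and their mix differed between genes, as in the lower LG IgG of IGHV7-3. Mutations within IgA or IgG alone were not compared.

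Spleen IgM sequences split the members. The mean number of mutations was 0.577 ± 0.2199 for IGHV7-3 (adjusted p = 8e-05) and 0.427 ± 0.250 for IGHV7-4 (adjusted p = 3e-05), lower than the 0.887 and 0.883 of other genes, while IGHV7-1 had 0.837 ± 0.235 (adjusted p = 0.474, sign-flip permutation in each). The germline release behind the mismatches was not given in the sources used here, so an allele that differs from it would be counted as a mutation. Exact matches to the germline of IGHV7-1 were found in all 24 spleens, in 46.5% to 64.7% of unique IgM sequences. On this measure only 57.9% ± 4.77 of the unique IgM sequences of IGHV7-1 had 0 mutations, against 73.4% in other genes, lower in 24 of 24 mice (adjusted p = 3e-05). The difference lay in sequences with exactly 1 mutation, which were 29.7% ± 3.49 of IGHV7-1 but 16.1% ± 2.10 of IGHV7-3, 16.01% ± 5.40 of IGHV7-4 and 12.7% ± 1.02 of other genes, while 7.82% of IGHV7-1 and 10.6% of other sequences had 3 or more. Among sequences with at least 2 counts the unmutated share of IGHV7-1 was 68.8% against 77.8% (adjusted p = 0.00032, chosen after seeing the data). Weighted by counts, also chosen after seeing the data, the direction depended on the removal of shared sequences. After the removal the unmutated share of IGHV7-1 IgM counts was 68.7% ± 10.7 against 73.5% in other genes, higher in 8 of 24 mice (sign-flip permutation, adjusted p = 0.0955). Before it the share was 88.8% ± 4.28 against 75.9%, higher in 22 of 24 mice (adjusted p = 0.00018). By unique sequences the share of IGHV7-1 was below that of other genes before the removal as well (59.0% against 74.2%, lower in 23 of 24).

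**Figure D5:**
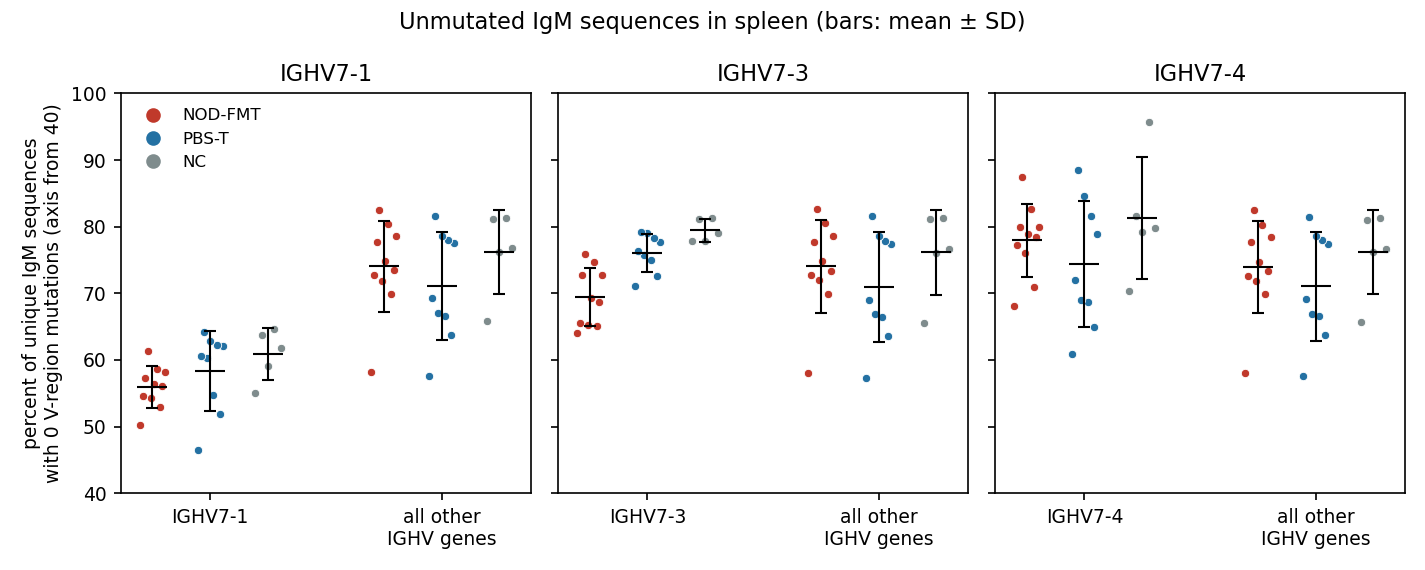
Percent of unique spleen IgM sequences with 0 V-region mutations for each IGHV7 gene and for all other IGHV genes of the same spleens, 1 point per mouse, with group mean ± SD; the axis starts at 40. IGHV7-1 lies below the other genes in each of 24 spleens, and IGHV7-3 is lower in NOD-FMT (mean 69.4%) than in PBS-T (76.1%) and NC (79.4%) spleens.

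Between groups, IGHV7-3 differed in this measure. The share of unique IgM spleen sequences with 0 mutations was 64.0%, 69.0% and 76.0% (lowest, median, highest) in NOD-FMT and 71.1%, 76.3% and 79.2% in PBS-T spleens, and 79.4% ± 1.72 in the 5 NC spleens. The NOD-FMT values lay lower and the 2 ranges overlapped between 71.1% and 76.0%. The means, 69.4% ± 4.38 and 76.1% ± 2.84, differed by -6.69 percentage points (n = 10 and 9, exact permutation p = 0.00199, adjusted p = 0.0239), and p was 0.000823 to 0.0042 with single mice left out. The other genes of the same spleens had 74.0% ± 6.92 and 70.98% ± 8.23 (exact permutation p = 0.389), and the difference of IGHV7-3 from the other genes separated the groups as well (exact permutation p = 0.0032). Restricted to sequences with at least 2 counts, the difference was -4.37 (exact permutation p = 0.0821, adjusted p = 0.205). The other genes then had 79.1% ± 4.04 in NOD-FMT and 73.5% ± 11.3 in PBS-T spleens (exact permutation p = 0.166). The difference of IGHV7-3 from them separated the groups (exact permutation p = 0.00459). Without the removal of shared sequences the IGHV7-3 difference was -6.42 (exact permutation p = 0.00171, adjusted p = 0.0205). The mean number of mutations in switched IGHV7-3 spleen sequences was 2.32 ± 0.513 in NOD-FMT and 1.61 ± 0.511 in PBS-T mice (exact permutation, adjusted p = 0.0533). In this measure the difference of IGHV7-3 from the other genes did not separate the groups (exact permutation p = 0.124). IGHV7-1 gave 56.0% ± 3.16 and 58.4% ± 6.01 unmutated IgM (exact permutation p = 0.286), and IGHV7-4 78.0% ± 5.47 and 74.4% ± 9.46 (exact permutation p = 0.312). Without the removal of shared sequences IGHV7-1 gave 56.7% ± 3.36 and 60.2% ± 3.19 (exact permutation p = 0.0342, adjusted p = 0.103). Its difference from the other genes then had an exact permutation p of 0.0681.

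By their share of spleen clonotypes over the 24 mice, the genes most like IGHV7-3 were IGHV6-3 (Spearman's rho 0.803), IGHV10-1 (0.789) and IGHV6-6 (0.758), and those most like IGHV7-4 were IGHV6-6 (0.820), IGHV10-1 (0.757) and IGHV1-87 (0.744). IGHV7-1 was most like IGHV2-3 (0.658), IGHV3-8 (0.585) and its neighbour IGHV2-9 (0.580). Within the family rho was 0.579 for IGHV7-3 and IGHV7-4, 0.318 for IGHV7-1 and IGHV7-3 and -0.00783 for IGHV7-1 and IGHV7-4. The points are shares of the same 24 libraries, which differ in depth. For position along the locus, the nearest genes to IGHV7-1 with assigned rows, IGHV2-9 and IGHV14-1, had 0.750% and 0.565% of spleen clonotypes, those beside IGHV7-3, IGHV9-3 and IGHV14-4, had 2.87% and 1.13%, and those beside IGHV7-4, IGHV3-3 and IGHV3-4, had 0.0424% and 0.117%.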

How the data were processed

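BCR heavy chains were analysed from 48 deposited tables, 1 LG and 1 spleen table for each of 24 mice. The authors merged read pairs with PEAR 0.9.10, filtered them by quality, clustered reads by UMI with Clustal Omega 1.2.4 without single-read clusters, and annotated them with IgBLAST 1.17.1, and the labels name mm10. The counts deposited by the authors are consensus sequences per unique nucleotide sequence, and the fraction the authors deposited beside them was used only to check library totals. V mutations are the whole-number mismatches the authors deposited per sequence. The germline gene release was not given in the sources used here. Nucleotide sequences held by more than 2 mice of a tissue, which the deposited tables still contain, were removed here. The wording of the study's rule against contamination was followed, but its amounts were not matched: 9.83% of LG and 9.84% of spleen counts were removed here, far more than the study states for each tissue. The PBS-T 5 LG lost 39.8% of its counts, and the median LG lost 1.06%.

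Usage was tested over all IGHV genes with edgeR 4.0.16 (R 4.3.3, quasi-likelihood test, filterByExpr, library-size scaling, Benjamini-Hochberg adjustment), with all 3 groups in 1 fit per tissue and mouse as a block for LG against spleen, which come from the same animals. Alternatives were DESeq2 1.42.0, TMM scaling, other filters, clonotypes of at least 2 counts, libraries thinned to 40105 (LG) or 71859 (spleen) counts, and each mouse left out. J pairing, isotype and mutation shares were compared with all other genes of the same library by two-sided sign-flip permutation over mice (exact up to 16 mice, otherwise 100000 flips) and between NOD-FMT and PBS-T by two-sided exact permutation over all divisions of the mice that met the minima (92378 divisions where all 19 did). Minima were 20 counts for isotypes, 10 unique sequences for mutations and 10 clonotypes for J pairing. The scripts were tested on simulated data. Intervals and floors cover counting error only, and PCR and primer bias are outside them. The threshold was an adjusted p of 0.05.

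The members, gene lists and tests were chosen with earlier results of these data known. Beside the 3 genes, the clonotypes named by rule were the T15-type clonotype, for each gene and tissue up to 3 clonotypes held by most mice (with and without the removal of shared sequences), and for each gene the clonotype with the highest share of counts in a LG and in a spleen. The clonotypes present in all 24 spleens were added after their values were seen. Genes most like a member were the 3 with the highest Spearman correlation of clonotype shares over the spleens. Python 3.11.15, NumPy 2.4.6, SciPy 1.17.1 and pandas 2.3.3 were used. Peripheral blood libraries were not analysed here.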

Additional observations from a re-analysis of the deposited data

Results flagged for a closer look

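In 36 groups of mice checked by Dixon's rule for 1 value far from the rest, 8 held one. How many chance alone would give for such skewed shares was not tested. IGHV7-4 in the NC LGs, where all values were 0, could not hold one. In the LG, IGHV7-1 took 5.55% of counts in NOD-FMT 7, where ARNYYSNSHWYFDV is the largest clonotype, and 3.21% in PBS-T 3. IGHV7-3 took 19% in NOD-FMT 6, mostly ARYTPLGSYFDY, and 6.52% in PBS-T 7, the LG that shares 37.9% of its clonotypes with that of PBS-T 5. IGHV7-4 took 0.299% in NOD-FMT 3 and 0.0589% in PBS-T 4, the latter all of VKAGGRWAWYFDV, which had 441 counts in the spleen of that mouse. In the spleen, IGHV7-1 took 0.367% of clonotypes in NOD-FMT 6 and 1.31% of counts in NOD-FMT 1, where ARTGTDWYFDV alone held 0.698%.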

How the results depend on the processing

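Values are log2 fold changes unless a unit is given, and the causes of changes were not tested. Of the summary values recomputed, 695 kept direction and side of the threshold, 43 changed direction, 14 came to pass, 6 no longer passed and 3 counts moved.

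For NOD-FMT against PBS-T, spleen clonotype differences were near 0. With clonotypes of at least 2 counts IGHV7-1, IGHV7-3 and IGHV7-4 became 0.0565, 0.1135 and 0.0459, and with thinned libraries 0.00372, 0.1142 and 0.0623. IGHV7-4 became 0.00502 without the removal of shared sequences, 0.00568 with sequences in 2 or more mice removed and 0.0197 in DESeq2, and by counts 0.0671 without that removal. IGHV7-1 LG clonotypes gave -0.547 in the merged libraries, and the others could not be tested. IGHV7-3 spleen counts passed in DESeq2 (0.574). With each mouse left out, LG clonotypes gave 0.11 to 0.518 for IGHV7-1 and 0.395 to 0.782 for IGHV7-3, and spleen clonotypes gave -0.126 to -0.0751 for IGHV7-1, -0.0734 to 0.00261 for IGHV7-3 and -0.0694 to 0.0419 for IGHV7-4. LG counts gave 0.868 to 2.71, 0.975 to 1.88 and 1.44 to 3.55, and spleen counts 0.338 to 0.738, 0.532 to 0.749 and -0.182 to 0.133, in the same order of genes.

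The replicate numbers share no source between these groups. Same-numbered spleens had correlations of -0.645 to 0.719 over 9 pairs, and 1 of 9 matched its own number best (LG -0.367 to 0.121, also 1). With the replicate number as a block, IGHV7-4 spleen counts gave 0.0809 and IGHV7-3 spleen counts 0.536 (edgeR adjusted p = 0.559), and it changed no call of the 3 genes.

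For LG against spleen by clonotypes, IGHV7-1 no longer passed in NC mice alone (0.778), nor IGHV7-3 in PBS-T (0.541) or NC mice (0.401) alone, and IGHV7-3 was -0.259 with clonotypes of at least 2 counts. IGHV7-4 came to pass without the filter on low numbers (-0.953), without the mouse block (-0.964), without the removal of shared sequences (-0.975) and with clonotypes by HCDR3 nucleotides (-1.075). Each mouse left out gave 1.33 to 1.49, 0.697 to 0.82 and -1.17 to -0.86 (edgeR adjusted p 0.0256 to 0.0978 for IGHV7-4). By counts IGHV7-1 was 0.767 with TMM, 0.742 without the mouse block, 0.589 in NOD-FMT mice alone and 0.377 in DESeq2, and passed at -1.406 without the removal of shared sequences. IGHV7-3 passed with TMM (1.439) and DESeq2 (1.05), and was -0.109 in PBS-T and -0.707 in NC mice alone and -0.0846 with clonotypes of at least 2 counts. Each mouse left out gave -0.74 to -0.411, 0.0595 to 0.284 and -6.71 to -6.09.

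In percentage points against other genes, 3 calls were lost by counts, IGHJ3 (-4.537) and IGHJ4 (2.365) of IGHV7-1 and IGHJ1 of IGHV7-3 (-0.648), and IGHV7-4 had IGHJ4 -3.949 in PBS-T mice alone. IGHV7-3 IgA in NC mice alone was -0.718 (LG) and -11.79 (spleen), and IGHV7-1 IgG in PBS-T spleens alone 1.164. In NOD-FMT spleens alone, IgM mutations per sequence of IGHV7-1 differed by 0.0581 and unmutated IgM of IGHV7-3 by -4.63 points. Unmutated IgM of IGHV7-1 in the spleen, weighted by counts without the removal of shared sequences, differed by 12.86 points, also chosen after seeing the data. Unmutated switched IGHV7-1 in the LG differed by -2.606 points with sequences of at least 2 counts, an alternative chosen after seeing the data. For NOD-FMT minus PBS-T, without the removal of shared sequences the IGHJ1 share of IGHV7-1 was -0.507 points, switched IGHV7-1 in the LG 0.0821 mutations and -2.238 points unmutated, and the T15-type share of spleen counts -0.0139 points. With sequences of at least 2 counts the LG values were 0.203 mutations and -7.84 points for IGHV7-1 and 0.0427 mutations for IGHV7-3. IgM of IGHV7-4 by unique sequences was -0.155 points.

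Over all genes, spleen counts gave 2 calls for NOD-FMT against PBS-T in edgeR, 7 with TMM and 7 in DESeq2, and 3, 4 and 6 against NC. LG clonotypes gave 4, 6 and 6 against PBS-T and 4, 2 and 3 against NC. LG counts of PBS-T against NC gave 2 in edgeR and 9 in DESeq2. LG against spleen by counts gave 0 higher and 75 lower in edgeR, 9 and 33 with TMM, and 8 and 60 in DESeq2. Of the IGHV7 genes against NC, 0 passed in the main fit. IGHV7-3 passed for NOD-FMT spleen counts with TMM and with DESeq2, and 1 gene for NOD-FMT LG clonotypes of at least 2 counts. The calls over all genes in that last setting are not given here, so its 1 call cannot be read against them.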

Other observations

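Clonotypes shared by all spleens differed in whether they were found in the LG. The values that follow are from before the removal of shared sequences, and none was tested. ARDNWDWYFDV of IGHV7-1 had 334 counts in 6 LGs, 258 of them in PBS-T 2, and 92.2% of the counts were IgM. ARDAWDWYFDV had 60 counts and ARDGYDWYFDV 70 counts, each in 7 LGs and 100% IgM. ARDAWFAY had 3 counts in 2 LGs, all of them IgM. ARDDGYYWYFDV had 88 counts in 7 LGs, of which 82.95% were IgM and 17.05% IgA. The T15-type clonotype had 1285 counts in 15 LGs, of which 99.3% were IgA. ARYYYGSSYAMDY and ARSGYYFDY of IGHV7-3 had 0 counts in any LG.

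ARDEWFAY of IGHV7-1 and IGHJ3 was found in 23 spleens with 6774 counts, of which 99.6% were IgM and 88.9% came from sequences without a V mutation, and had 0 counts in any LG. After the removal, which takes the widely shared copies, 719 counts were left, of which 15.2% were without a V mutation.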
